A study of Mustela putorius furo with 9 samples.

Results

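The genes described here encode the subunits of RNA polymerases I, II and III and of Mediator. They are all rows of the deposited table whose gene identifier carries a symbol that begins with POLR1, POLR2 or POLR3 and a letter, or with MED and a number. The rule found 56 of 28494 listed genes and used no measured value. It gave 3 subunits of polymerase I alone (POLR1A, POLR1B, POLR1E), 2 shared by polymerases I and III (POLR1C, POLR1D), 3 shared by all 3 enzymes (POLR2E, POLR2F, POLR2H), 8 subunits of polymerase II alone, 10 of polymerase III alone and 30 of Mediator. POLR2K and POLR2L, which are also shared by the 3 enzymes, are not analysed here. The polymerase I subunits listed under the older symbols TWISTNB, CD3EAP and ZNRD1 lie outside the rule.

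RNA polymerase I makes the large ribosomal RNA precursor, RNA polymerase II makes messenger RNA and many small nuclear RNAs, and RNA polymerase III makes transfer RNA, 5S ribosomal RNA and other short RNAs. Each enzyme has a pair of very large subunits that form the catalytic cleft, a set of small subunits around it, and a stalk that guides the emerging transcript. Mediator carries signals from DNA-bound activators to polymerase II: its head and middle modules touch the polymerase, its tail binds activators, MED14 ties these parts together, and a kinase module binds the rest reversibly. In lung epithelial cells these are housekeeping genes, and a few Mediator subunits also act as targets of particular transcription factors.

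The study measured the RNA of NBL-7 cells, a lung epithelial line that the labels call ferret, grown in medium with serum; its title names exposure to particulate matter. NBL-7 also names a mink line, and no test of the species was made. There were 9 RNA sequencing libraries in 3 groups of 3: Ep1, labelled untreated, Ep2, labelled with particulate matter at 250 µg/mL, and the group titled PBS1, labelled with 500 µg/mL. Since PBS commonly stands for a buffer used as vehicle, that group's title and treatment label conflict, and all 3 pairs of groups were compared. It is called the PBS group here, and its libraries are named by the table's columns PBS1, PBS2 and PBS3, which cannot be matched to single titles. Exposure time, age and genotype are not given in the labels. They also do not state whether replicate libraries are separate cultures. The p-values therefore reflect library-to-library spread alone, and that spread could be technical.

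Values are the authors' FPKM, fragment numbers divided by the length of the gene and the size of the library. This scaling did not remove all trends on gene length between libraries, which are described below. The libraries held 12469849 to 13533480 fragments, as recovered from the deposited values, and a member was covered by between 51 fragments (MED18) and 3725 fragments in a library, with a median of 509.5. All 56 members passed the filter of at least 1 FPKM in at least 3 libraries, as did 11840 genes in all. Markers fitted the epithelial label in part: KRT8 and KRT19, keratins of simple epithelia, lay at 131 to 200 and 156 to 276 FPKM, whereas EPCAM was at 0 in all 9 libraries and CDH1, KRT18, CLDN4 and CLDN7 were under 1 FPKM. Of 6 lung epithelial markers NKX2-1, a lineage factor, lay at 8.05 to 15.5 FPKM, SCGB1A1 reached 1.31 FPKM in 1 library, SFTPB and FOXJ1 stayed under 1 FPKM, and SFTPC and AQP5 were at 0 throughout. Of 7 fibroblast markers COL1A2 lay at 1.10 to 2.12 FPKM and PDGFRA at 0.669 to 2.05 FPKM, LUM and DCN were at 0, and the summed level was 2.83 to 3.67 FPKM in Ep1, 2.51 to 3.24 FPKM in Ep2 and 1.98 to 3.73 FPKM in the PBS group. The 4 endothelial and 4 leukocyte markers were under 1 FPKM throughout. The 7 epithelial markers' summed level was 322 to 419 FPKM in Ep1, 297 to 315 FPKM in Ep2 and 412 to 459 FPKM in the PBS group. The part of these markers in the differences between groups was not tested, and in bulk RNA fewer cells of a type and less RNA per cell cannot be told apart. Library Ep1_1 stood nearer to the PBS libraries than Ep1_2 and Ep1_3 did. It also stood nearer to them than to the other libraries of its own group. By chi-square per degree of freedom on recovered fragments, it differed from columns PBS1, PBS2 and PBS3 by 6.31, 5.08 and 4.35. From Ep1_2 and Ep1_3 it differed by 8.19 and 10.9. Results that rest on Ep1_1 are given with and without it.

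Averaged over the 9 libraries, the members spanned 1.89 FPKM for MED9, a middle subunit, to 76.4 FPKM for POLR2F, a small subunit of all 3 polymerases. The median member had 19.8 FPKM, against 12.0 FPKM for the median tested gene. Subunits shared by all 3 enzymes had the highest median, 47.6 FPKM, followed by polymerase II alone at 31.2 FPKM, polymerase I alone at 20.2 FPKM, the 2 subunits shared by polymerases I and III at 20.1 FPKM, Mediator at 16.9 FPKM and polymerase III alone at 16.5 FPKM. These last 4 medians lay close together, while single genes within Mediator spanned a 39.8-fold range and those of polymerase I alone only a 1.21-fold range. Of the alternative subunits, POLR3GL averaged 18.7 FPKM and its paralog POLR3G 7.13 FPKM, MED12 22.5 FPKM and MED12L 8.37 FPKM, and MED13 12.9 FPKM and MED13L 9.68 FPKM. MED12L lies across several genes on the other strand. The strand setting of the counting is not given, so reads of such pairs cannot be told apart.

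Between the PBS group and Ep2, small polymerase subunits were the members that differed most. POLR2I and POLR2F, a small polymerase II subunit and a small subunit of all 3 enzymes, were higher in the PBS group by 2.12-fold and 1.93-fold, whereas the catalytic subunit POLR2B and the Mediator subunits MED14, MED23 and MED13 were lower. Among the 56 members 12 rose and 8 fell in the PBS group relative to Ep2, and 36 did not pass the test. These calls, by limma at a Benjamini-Hochberg adjusted p under 0.05, cover 35.7% of the members, a smaller share than the 49.6% of all tested genes (25.4% higher and 24.2% lower). The PBS and Ep2 libraries did not overlap for 16 members that lay higher and 13 that lay lower, 51.8% of the members against 60.3% of all tested genes. The plot of log2 differences by complex sets these beside the other comparisons.

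**Figure D1:**
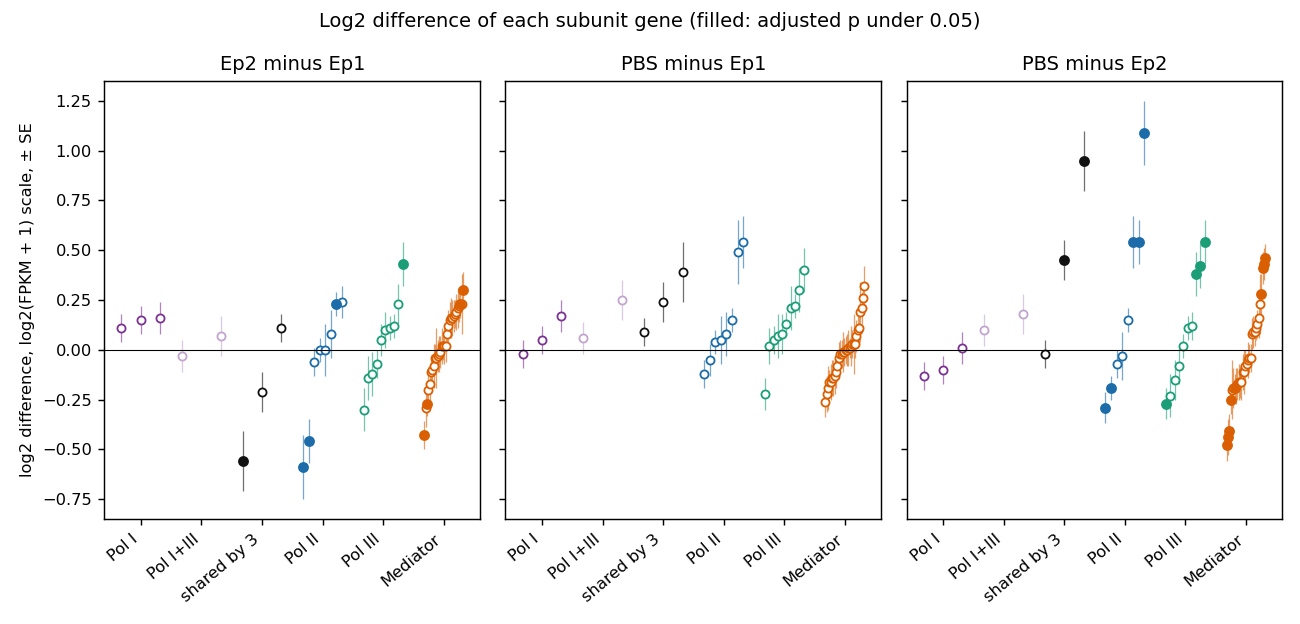
Log2 difference of each of the 56 subunit genes on the log2(FPKM + 1) scale (vertical axis, error bars ± SE), by complex (horizontal axis), for Ep2 minus Ep1, PBS minus Ep1 and PBS minus Ep2. Filled points passed the limma test at an adjusted p under 0.05: 9 in the left panel, 0 in the middle and 20 in the right, where the highest point, at 1.09, is POLR2I.

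The largest subunits of polymerase II moved little. POLR2A, which carries the C-terminal repeat domain, had 43.4, 35.6 and 31.5 FPKM in columns PBS1, PBS2 and PBS3, against 32.7, 42.1 and 37.8 FPKM in Ep2_1, Ep2_2 and Ep2_3. The groups overlapped, with a log2 difference of -0.03 ± 0.12 (SE, adjusted p = 0.839). POLR2B, the second largest subunit, had 53.3, 50.1 and 50.9 FPKM in the PBS columns, against 58.9, 59.9 and 57.8 FPKM in the Ep2 libraries. Every PBS value lay below every Ep2 value, and POLR2B fell by a small 0.19 ± 0.06 on the log2 scale (adjusted p = 0.0155), a call that was lost without Ep2_2 or without column PBS2. IGFBP7 overlaps POLR2B by 166 bases on the other strand. With a mean of 215 FPKM in the PBS group and 193 FPKM in Ep2, IGFBP7 differed by 0.15. Its part in the POLR2B result was not tested.

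Of the small subunits of polymerase II, POLR2I and POLR2J were higher in the PBS group than in Ep2. POLR2I, which lies beside the cleft and takes part in start site selection and transcript cleavage in yeast, had 57.0, 66.0 and 52.7 FPKM in the PBS columns, against 34.6, 21.6 and 26.0 FPKM in the Ep2 libraries. The lowest PBS library was well above the highest Ep2 library, and the log2 difference was 1.09 ± 0.16 (adjusted p = 0.000618). POLR2J, which pairs with POLR2C to start assembly of the enzyme, had 25.8, 31.0 and 30.6 FPKM in the PBS columns and 21.2, 18.2 and 19.4 FPKM in Ep2. These groups did not overlap either, and POLR2J rose by 0.54 ± 0.11 (adjusted p = 0.00214). LRWD1, which overlaps POLR2J by 43 bases on the other strand, differed by 0.36 in the same comparison, and its part in the result was not tested. Its assembly partner POLR2C averaged 27.8 ± 1.10 FPKM in the PBS group and 24.9 ± 1.02 FPKM in Ep2 (SD, n = 3 each), a difference of 0.15 that did not pass by limma (adjusted p = 0.0561).

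The stalk of polymerase II is formed by POLR2D and POLR2G, and these differed in opposite directions. POLR2G had 67.7, 80.0 and 66.4 FPKM in the PBS columns, against 45.0, 49.4 and 52.0 FPKM in Ep2. POLR2D had 11.8, 11.0 and 11.8 FPKM in the PBS columns, against 13.3, 15.4 and 14.1 FPKM in Ep2. All PBS values were higher for POLR2G and all were lower for POLR2D, with log2 differences of 0.54 ± 0.13 (adjusted p = 0.00664) and -0.29 ± 0.08 (adjusted p = 0.0145). The POLR2D call was lost without Ep2_2 and without column PBS2. POLR2M, which associates with polymerase II and modulates its response to Mediator, averaged 20.3 ± 0.84 FPKM in the PBS group and 21.4 ± 1.24 FPKM in Ep2 and did not pass.

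Of the subunits shared by all 3 enzymes, POLR2F and POLR2E rose and POLR2H did not pass. POLR2F had 109, 103 and 88.3 FPKM in the PBS columns, against 62.2, 44.0 and 49.1 FPKM in Ep2. POLR2E had 58.1, 59.5 and 49.0 FPKM in the PBS columns, against 36.7, 39.8 and 44.7 FPKM in Ep2. Neither gene overlapped between the groups, and the log2 differences were 0.95 ± 0.15 (adjusted p = 0.000937) and 0.45 ± 0.10 (adjusted p = 0.00557). POLR2H, with 40.4, 39.1 and 43.1 FPKM in the PBS columns and 40.7, 42.6 and 41.1 FPKM in Ep2, differed by -0.02 ± 0.07.

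**Figure D2:**
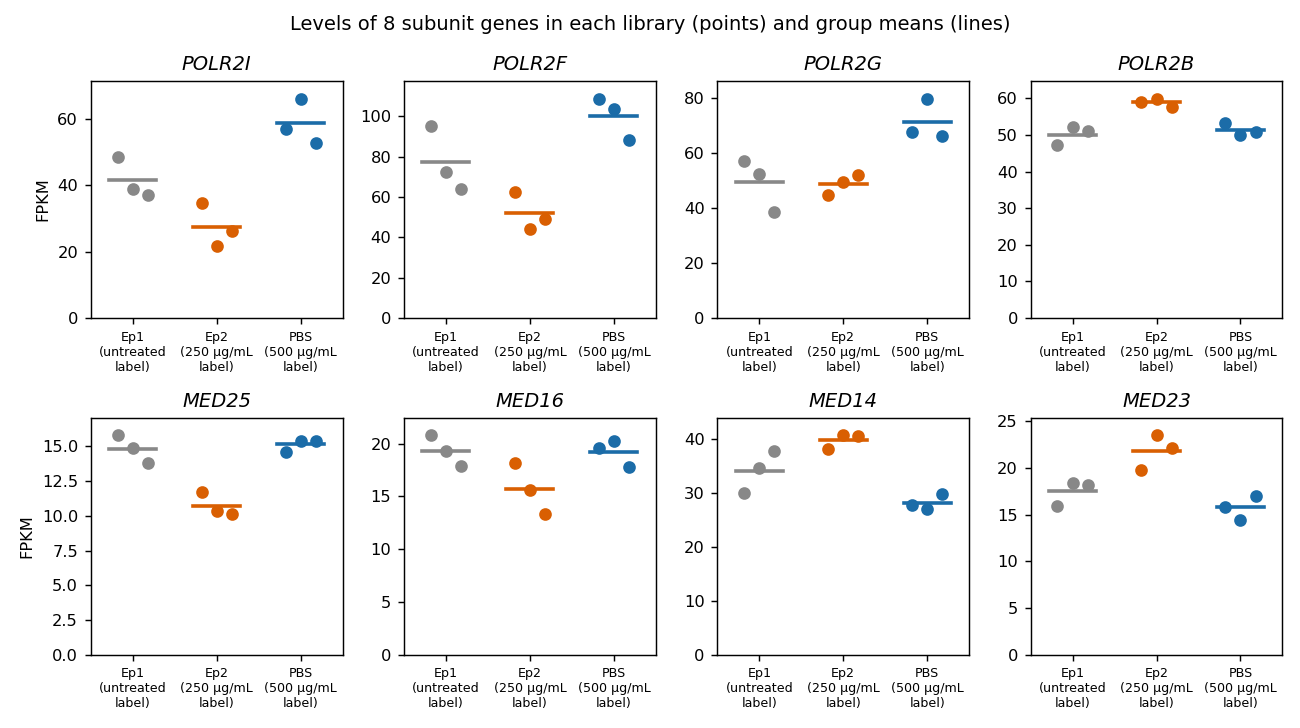
FPKM of 8 subunit genes (vertical axis, from 0) in each library (points), with group means (lines), for Ep1, Ep2 and the PBS group (horizontal axis, in the order of the labelled doses). For POLR2I, POLR2F and POLR2G all PBS points lie above all Ep2 points, for POLR2B, MED14 and MED23 all lie below them, and for MED16 the groups overlap.

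None of the 5 members of polymerase I, alone or shared with polymerase III, passed the limma test in any of the 3 comparisons, and limma voom also called 0. Of all tested genes limma called 27.4% in Ep2 relative to Ep1. It called 0.144% in the PBS group relative to Ep1 and 49.6% in the PBS group relative to Ep2. TWISTNB, a polymerase I subunit outside the rule, did pass between Ep2 and each of the other groups, as given under other observations. At an unadjusted p under 0.05 by limma, 1 of the 5 members passed in the PBS group relative to Ep1 (POLR1C), against 22.4% of all tested genes. In Ep2 relative to Ep1 there was 1 (POLR1E), and in the PBS group relative to Ep2 there were 0. For these comparisons the share of all tested genes at that unadjusted threshold is not given here. With Ep1_1 left out, POLR1C was higher by 0.34 in the PBS group relative to Ep1 (limma adjusted p = 0.0448). POLR1A, the largest subunit, had 22.5, 21.2 and 19.4 FPKM in the PBS columns, against 18.8, 22.5 and 21.3 FPKM in Ep2, and differed by 0.01 ± 0.08. POLR1B, the second largest, had 18.7, 18.9 and 16.5 FPKM in the PBS columns, against 19.2, 20.2 and 20.0 FPKM in Ep2, and differed by -0.13 ± 0.07 (adjusted p = 0.128) although the groups did not overlap. The assembly partners POLR1C and POLR1D differed by 0.18 ± 0.10 and 0.10 ± 0.08. Their values were 34.8, 29.6 and 27.5 FPKM for POLR1C and 12.1, 12.7 and 13.8 FPKM for POLR1D in the PBS columns. In Ep2 they were 25.6, 26.2 and 28.8 FPKM for POLR1C and 11.1, 12.3 and 12.5 FPKM for POLR1D, and the groups overlapped for both genes. POLR1E, which helps the enzyme start and extend transcripts, averaged 22.4 ± 1.44 FPKM in the PBS group and 24.1 ± 0.32 FPKM in Ep2.

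Polymerase III followed no single direction: of its 10 own subunits, 3 rose, 1 fell and 6 did not pass. POLR3D, which forms a heterodimer with POLR3E, averaged 16.9 ± 1.61 FPKM in the PBS group and 12.4 ± 0.88 FPKM in Ep2, a log2 difference of 0.42, while POLR3E itself differed by 0.12 ± 0.07 and did not pass. POLR3K, which acts in transcript cleavage and termination, averaged 21.5 ± 2.84 FPKM in the PBS group and 16.3 ± 1.86 FPKM in Ep2 and rose by 0.38 (adjusted p = 0.0137, lost without Ep2_3 or column PBS2). POLR3C, of the trimer that opens the promoter, had 17.9, 18.2 and 19.5 FPKM in the PBS columns, against 21.8, 24.3 and 21.4 FPKM in Ep2. Its groups did not overlap and it fell by 0.27 ± 0.08 (adjusted p = 0.019), a call lost when Ep2_2, column PBS1 or column PBS2 was left out. The largest subunits of polymerase III did not pass: POLR3A had 13.5, 11.1 and 11.1 FPKM in the PBS columns, against 11.8, 13.4 and 12.6 FPKM in Ep2. POLR3B had 9.25, 9.48 and 9.28 FPKM in the PBS columns, against 8.03, 8.86 and 8.89 FPKM in Ep2, higher in every PBS library but with a log2 difference of only 0.11 ± 0.06 (adjusted p = 0.183).

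In Mediator 4 of 30 subunits rose in the PBS group relative to Ep2, 5 fell and 21 did not pass. That is 30.0% called, against 49.6% of all tested genes. MED14, the scaffold, had 27.7, 27.1 and 29.7 FPKM in the PBS columns, against 38.1, 40.7 and 40.6 FPKM in Ep2. It fell by 0.48 ± 0.08 on the log2 scale (adjusted p = 0.00107) with no overlap. MED14 lies across 13572 bases of USP9X on the other strand, and USP9X, with a mean of 43.9 FPKM in the PBS group and 63.9 FPKM in Ep2, differed by -0.53. Whether reads of USP9X contribute to MED14 was not tested. In the head, MED17, its central subunit, had 26.5, 26.2 and 25.6 FPKM in the PBS columns, against 29.9, 32.3 and 31.6 FPKM in Ep2, and fell by 0.25 ± 0.07 (adjusted p = 0.0128). MED11, a small head subunit, had 42.7, 37.3 and 42.7 FPKM in the PBS columns, against 28.8, 28.7 and 32.6 FPKM in Ep2, and rose by 0.43 ± 0.08 (adjusted p = 0.00209). Neither head subunit overlapped between the groups, and MED20, another head subunit, rose by 0.41.

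Among the Mediator modules the tail spanned the widest range of log2 differences, from -0.44 to 0.46. MED25, which binds activators, had 14.6, 15.4 and 15.4 FPKM in the PBS columns, against 11.7, 10.3 and 10.2 FPKM in Ep2, and rose by 0.46 ± 0.07 (adjusted p = 0.000937). MED23, another activator-binding subunit, had 15.9, 14.4 and 17.0 FPKM in the PBS columns, against 19.8, 23.5 and 22.1 FPKM in Ep2, and fell by 0.44 ± 0.09 (adjusted p = 0.00212). Both calls held with each library left out in turn and the groups did not overlap. MED16 rose by 0.28 with overlapping groups, and its call was lost in 5 of the 9 fits with a library left out. MED15, the subunit bound by the SREBP factors that control sterol genes, averaged 16.8 ± 1.25 FPKM in the PBS group and 17.2 ± 0.34 FPKM in Ep2, a difference of -0.04 ± 0.07 that did not pass (adjusted p = 0.675).

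In the kinase module, MED13, which links it to the rest of Mediator, had 10.9, 10.6 and 11.1 FPKM in the PBS columns, against 14.0, 15.3 and 15.0 FPKM in Ep2. It fell by 0.41 ± 0.09 (adjusted p = 0.00361) with no overlap, while its paralog MED13L differed by -0.08 ± 0.08. MED12, which activates the kinase, had 22.7, 21.6 and 22.2 FPKM in the PBS columns, against 20.9, 20.1 and 20.5 FPKM in Ep2. All PBS values were higher, but the log2 difference of 0.11 ± 0.06 did not pass (adjusted p = 0.139). Of the middle module only MED21 passed: it fell by 0.19 with overlapping groups, and its call was lost in 7 of the 9 fits with a library left out. MED1, the docking subunit for nuclear receptors, had 28.1, 26.9 and 31.1 FPKM in the PBS columns and 27.7, 30.5 and 30.1 FPKM in Ep2. MED26, which takes part in recruiting elongation factors, had 5.07, 4.85 and 4.70 FPKM in the PBS columns and 4.61, 4.27 and 4.77 FPKM in Ep2. Neither of these middle subunits passed, and for both the groups overlapped.

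**Figure D3:**
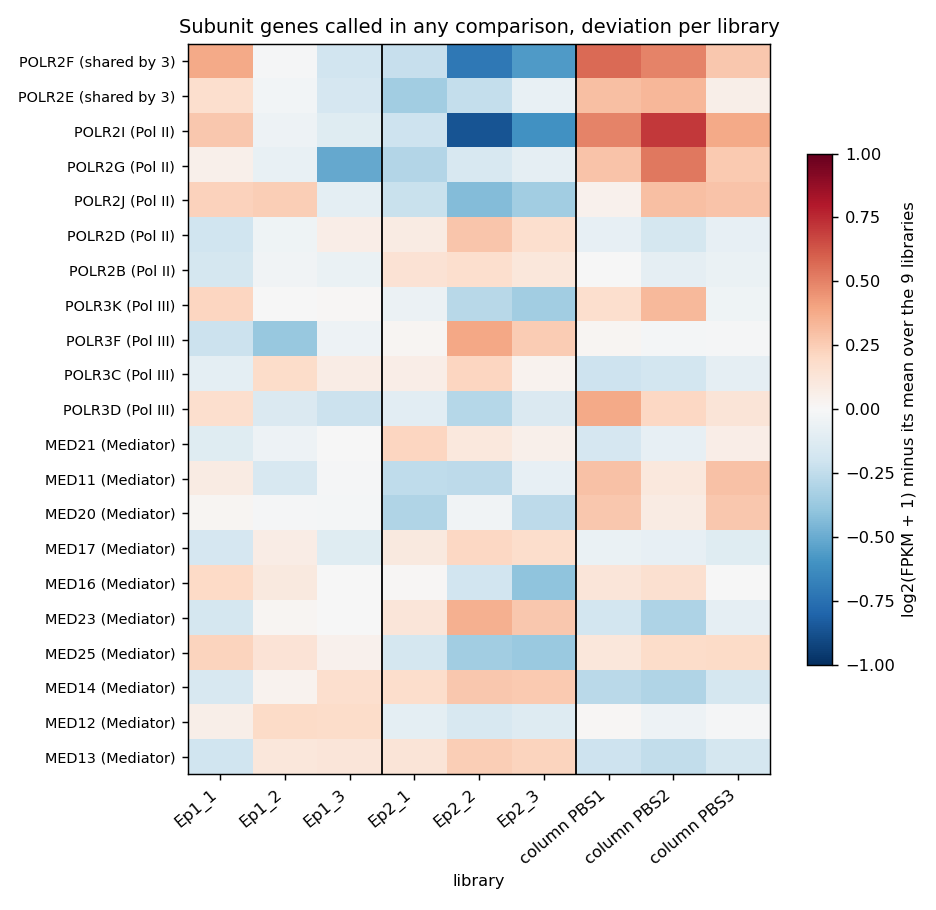
Deviation of log2(FPKM + 1) from its mean over the 9 libraries (colour), for 21 of the 22 subunit genes called in any comparison (rows, by complex and, within it, by gene length) in each library (columns). Ep1_1 lies nearer to the PBS mean than to the Ep2 mean for 19 of the 20 genes called between the PBS group and Ep2, which shows as a like colour. Over all genes compared, Ep1_1 also lay nearer to the PBS libraries than to the Ep2 libraries.

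Differences between the PBS group and Ep2 went with gene length among the subunits of polymerase II, and only weakly among those of polymerase III. The members had annotated lengths of 585 to 14061 bases with a median of 2002, against 2818 for all tested genes, and 12 members were at most 1000 bases long. Of the 7 polymerase subunits at most 1000 bases long, 6 rose in the PBS group relative to Ep2 and none fell, with a median log2 difference of 0.54. Of the 19 longer polymerase subunits 2 rose and 3 fell, with a median of -0.03. Mediator did not follow this: of its 5 subunits of at most 1000 bases 1 rose and 1 fell, with a median of -0.16. Among all 1532 tested genes of that length 49.0% were called, 492 higher and 259 lower, with a median of 0.12.

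Across genes, Spearman's rho between gene length and the PBS minus Ep2 difference was -0.65 over the 26 polymerase subunits, 0.00 over the 30 Mediator subunits and -0.16 over all tested genes, points that share the same 6 libraries. Within the polymerases it was -0.81 over the 8 subunits of polymerase II alone and -0.28 over the 10 of polymerase III alone. When the trend of each library on gene length over all tested genes was removed, all 20 calls held in the same direction and the counts became 13 higher and 13 lower (49.7% of all tested genes were called). The short polymerase subunits then had a median log2 difference of 0.43, with POLR2I at 0.96 and POLR2F at 0.82, and rho was -0.51 over the 26 polymerase subunits, -0.81 over those of polymerase II alone and -0.18 over those of polymerase III alone. The members that joined the calls were MED12, which rose by 0.17, and MED8, MED29, MED30, MED31 and POLR3F, which fell by 0.26 to 0.31. With these, 4 of the 5 Mediator subunits at most 1000 bases long fell, and their median was -0.28. Among all 1532 tested genes of that length 50.1% were then called, 395 higher and 372 lower, with a median of -0.01.

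**Figure D4:**
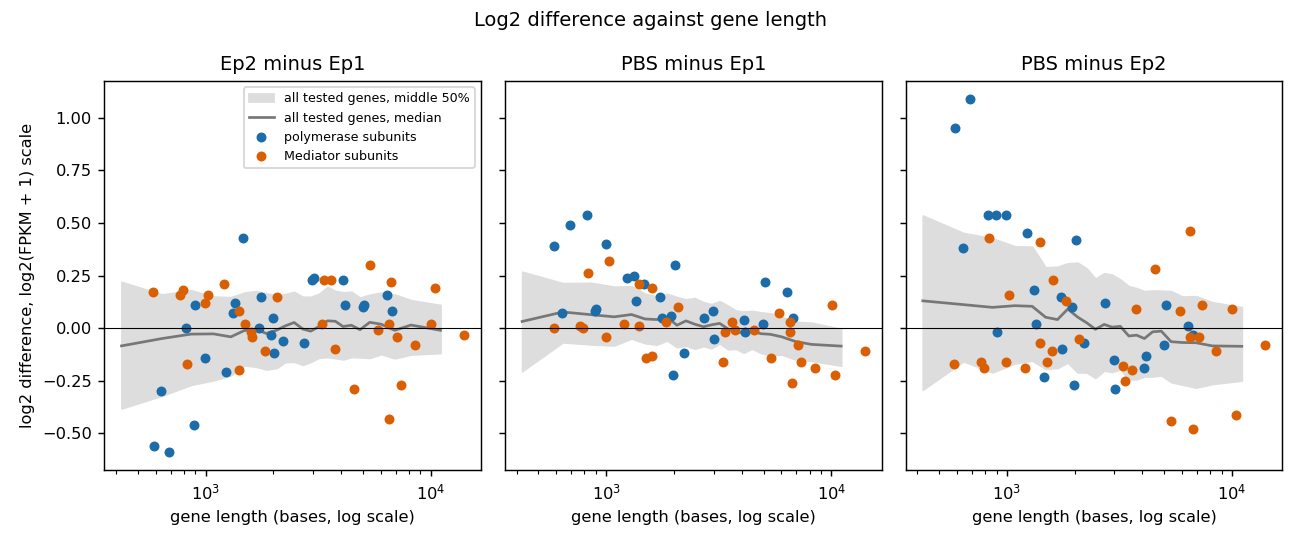
Log2 difference on the log2(FPKM + 1) scale (vertical axis) against gene length in bases (horizontal axis, log scale) for polymerase subunits (blue points) and Mediator subunits (orange points), with the median (grey line) and middle 50% (grey band) of all tested genes in bins of length. In the right panel the short polymerase subunits POLR2I and POLR2F lie at 1.09 and 0.95, above the band, and the short Mediator subunits other than MED11 lie below 0.

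Between Ep2 and Ep1, fewer members differed: 4 rose in Ep2 (POLR2B, POLR3F, MED17, MED23) and 5 fell (POLR2F, POLR2I, POLR2J, MED12, MED25). That is 16.1% of the members, against 27.4% of all tested genes (13.4% higher and 14.0% lower). The libraries did not overlap for 16 members that lay higher and 7 that lay lower, 41.1% of the members against 42.8% of all tested genes. The Ep2 libraries are shared with the comparison above, so the results of these comparisons do not stand on separate data.

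POLR2I had 34.6, 21.6 and 26.0 FPKM in Ep2_1, Ep2_2 and Ep2_3, against 48.6, 38.7 and 36.9 FPKM in Ep1_1, Ep1_2 and Ep1_3. POLR2F had 62.2, 44.0 and 49.1 FPKM in Ep2, against 95.2, 72.4 and 64.0 FPKM in Ep1. Every Ep2 value was the lower for both genes, which fell by 0.59 ± 0.16 (adjusted p = 0.0197) and 0.56 ± 0.15 (adjusted p = 0.0217), but both calls were lost without Ep1_1, without Ep2_2 and without Ep2_3. POLR2J had 21.2, 18.2 and 19.4 FPKM in Ep2, against 29.5, 29.8 and 23.2 FPKM in Ep1. It fell by 0.46 ± 0.11 (adjusted p = 0.0119), the groups did not overlap and the call held with each library left out. LRWD1, its neighbour on the other strand, differed by -0.27.

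In Mediator, MED25 had 11.7, 10.3 and 10.2 FPKM in Ep2, against 15.8, 14.9 and 13.8 FPKM in Ep1. MED12 had 20.9, 20.1 and 20.5 FPKM in Ep2, against 23.4, 25.8 and 25.6 FPKM in Ep1. Both fell with no overlap, by 0.43 ± 0.07 (adjusted p = 0.00506) and 0.27 ± 0.06 (adjusted p = 0.0099), and both calls held with each library left out. MED23 had 19.8, 23.5 and 22.1 FPKM in Ep2, against 16.0, 18.4 and 18.1 FPKM in Ep1. MED17 had 29.9, 32.3 and 31.6 FPKM in Ep2, against 24.6, 29.3 and 25.5 FPKM in Ep1. These rose by 0.30 ± 0.09 (adjusted p = 0.0263) and 0.23 ± 0.07 (adjusted p = 0.0318) with no overlap, and neither call held without Ep1_1, without Ep2_2 or without Ep2_3 (nor, for MED17, without Ep1_3). MED14 had 38.1, 40.7 and 40.6 FPKM in Ep2, against 30.0, 34.5 and 37.8 FPKM in Ep1, and its difference of 0.22 ± 0.08 did not pass (adjusted p = 0.0634).

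Among the catalytic subunits POLR2B had 58.9, 59.9 and 57.8 FPKM in Ep2, against 47.2, 52.1 and 51.0 FPKM in Ep1. It rose by 0.23 ± 0.06 (adjusted p = 0.015) with no overlap, and the call was lost only without Ep2_2. IGFBP7, its neighbour on the other strand, differed by -0.06. POLR2A had 32.7, 42.1 and 37.8 FPKM in Ep2, against 33.5, 37.7 and 34.5 FPKM in Ep1, and did not pass. In polymerase III, POLR3F, of the same trimer as POLR3C, had 5.75, 7.68 and 6.94 FPKM in Ep2, against 4.74, 4.13 and 5.41 FPKM in Ep1. It rose by 0.43 ± 0.11 (adjusted p = 0.016) with no overlap, a call lost without Ep2_2 or Ep2_3. The 7 short polymerase subunits had a median difference of -0.30 and the 5 short Mediator subunits 0.16, against -0.05 for all tested genes of that length (29.8% called). All 9 calls held when the trend on gene length was removed, when MED14 and MED21 joined the higher calls (29.0% of all tested genes were called).

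Between the PBS group and Ep1, no member passed: 0 of 56 by limma, against 0.144% of all tested genes. At an unadjusted p under 0.05 there were 16 members, against 22.4% of all tested genes, and limma voom on the recovered fragments called 2 members higher and 1 lower (4.43% of all tested genes). The libraries did not overlap for 11 members that lay higher and 3 that lay lower, 25.0% of the members against 23.7% of all tested genes. POLR2G had the largest difference, with 67.7, 80.0 and 66.4 FPKM in the PBS columns, against 57.3, 52.5 and 38.4 FPKM in Ep1. The groups did not overlap, and the log2 difference was 0.54 ± 0.13 (adjusted p = 0.086). POLR2I had 57.0, 66.0 and 52.7 FPKM in the PBS columns, against 48.6, 38.7 and 36.9 FPKM in Ep1, a difference of 0.49 ± 0.16 (adjusted p = 0.121). POLR2F differed by 0.39 ± 0.15 (adjusted p = 0.172) and MED14 by -0.26 ± 0.08 (adjusted p = 0.116).

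This outcome rested on 1 library. Over the 20 members called between the PBS group and Ep2, Ep1_1 lay nearer to the PBS mean than to the Ep2 mean for 19, Ep1_2 for 9 and Ep1_3 for 7. On a scale where the Ep2 mean is 0 and the PBS mean is 1, their median positions were 0.94, 0.47 and 0.42. This count was not made over all tested genes, but the position of Ep1_1 was not particular to the members. Over all genes compared, its chi-square per degree of freedom was 4.35 to 6.31 against the PBS columns and 21.2 to 33.4 against the Ep2 libraries. Without Ep1_1, 7 members were higher in the PBS group (POLR1C, POLR2F, POLR2G, POLR2I, POLR3D and MED11 among them) and 5 were lower (POLR3C, MED12, MED12L, MED13, MED14). That is 21.4% of the members, against 15.8% of all tested genes. Of these, POLR2G reached an adjusted p of 0.0125 and MED14 of 0.0114. When the trend on gene length was removed as well, fewer members passed in each direction, as counted under the dependence on processing. Over all genes the calls then went from 1875 to 1495. The cause of the position of Ep1_1 was not tested.

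Factors that work with these enzymes were read against all tested genes, of which 25.4% rose and 24.2% fell in the PBS group relative to Ep2 (49.6% called), and the direction of a list was not tested. Of 7 polymerase I factors 4 fell and none rose (57.1% called), with a median log2 difference of -0.29, against 0.00 for all tested genes. TAF1D, of the selectivity factor that marks ribosomal DNA promoters, averaged 13.6 ± 0.77 FPKM in the PBS group and 20.3 ± 0.55 FPKM in Ep2 and fell by 0.55 (adjusted p = 0.000347). TAF1B and TAF1A, of the same complex, fell by 0.39 and 0.35. Of 29 general factors of polymerase II 12 fell and 3 rose (51.7% called, close to the share of all tested genes), with a median of -0.15. The largest changes were in GTF2A1, the large subunit of TFIIA, which averaged 9.84 ± 0.52 FPKM in the PBS group and 14.3 ± 0.53 FPKM in Ep2 and fell by 0.50 (adjusted p = 0.000534) and TAF13 of TFIID, which fell by 0.43.

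Of 14 factors of pausing and elongation 7 rose and 4 fell (78.6% called, against 49.6% of all tested genes), with a median of 0.22. NELFB, of the negative elongation factor that holds polymerase II near the start, averaged 38.1 ± 1.78 FPKM in the PBS group and 25.0 ± 2.22 FPKM in Ep2. NELFE, of the same complex, averaged 27.3 ± 0.96 FPKM in the PBS group and 17.8 ± 1.27 FPKM in Ep2. Each rose by 0.59 (adjusted p = 0.000731 for NELFB and 0.000624 for NELFE), whereas TCEA1, which restarts stalled polymerase, averaged 72.8 ± 5.20 FPKM in the PBS group and 103 ± 1.21 FPKM in Ep2 and fell by 0.49. The negative elongation factor did not move as a whole. NELFA also lay higher in the PBS group, at 15.1 ± 0.83 FPKM against 11.6 ± 0.44 FPKM in Ep2. NELFCD lay the other way, at 33.3 ± 0.84 FPKM in the PBS group and 39.7 ± 0.62 FPKM in Ep2. Of 17 polymerase III factors 3 rose and 3 fell (35.3% called). BRF1, of the initiation factor TFIIIB, rose by 0.56, while BDP1 of the same factor fell by 0.50 and SNAPC1, of the complex that binds small nuclear RNA promoters, fell by 0.56. Of the 3 genes for the Mediator kinases and their cyclin, CDK19 and CCNC fell by 0.32 and 0.25 and CDK8 differed by -0.27 without passing (adjusted p = 0.063).

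In Ep2 relative to Ep1, where 13.4% of all tested genes rose and 14.0% fell (27.4% called), 9 of the 29 general polymerase II factors rose and 1 fell (34.5% called). Of the 14 pausing and elongation factors 1 rose and 6 fell, so that 7 of 14 were called. Of the polymerase I factors 2 of 7 rose and none fell (28.6% called), and of the polymerase III factors 1 of 17 rose and 3 fell (23.5% called). Some of these calls depended on which libraries were kept. Of the factors named above, BRF1 was lost in 8 of the 9 fits with a library left out, TAF13 in 6 and NELFB in 5. SNAPC1 was lost in 3 and NELFE in 1, whereas TAF1D, GTF2A1, TCEA1 and NELFA held in all. Between the PBS group and Ep1, limma called 0 of the 77 genes in all the lists of factors, kinases, older symbols and mitochondrial proteins, with 15 at an unadjusted p under 0.05 (19.5%, against 22.4% of all tested genes). Limma voom on the recovered fragments called 4 of them (5.19%, against 4.43% of all tested genes), TAF1D, GTF2F1, BRF1 and CD3EAP. These comparisons share libraries.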

How the data were processed

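RNA sequencing values of 9 NBL-7 libraries in 3 groups were used, with groups taken from the titles and the treatment label given beside them. The authors deposited 1 table of FPKM per gene and library, scaled to gene length and library size per the file headers. Bowtie 0.12.2 and mm8, a mouse build, are named per the submitters' processing notes, whereas the table names ferret genes. No build is therefore settled, and neither coordinates nor sequences are printed. How fragments were counted, against which annotation and with which strand setting, and how reads from near-identical copies were handled, is not given in the sources used here. Members that overlap another listed gene (11, of which 6 have a partner that reaches 1 FPKM) and paralogs are uncertain to that extent.

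Symbols were read from the gene identifiers, and all 56 were found in a RefSeq table for another assembly, which served for names alone. Depth was recovered from the steps between FPKM values times gene length (100% of values above 0 came within 0.02 of whole fragments). On 1000 bases, 1 fragment is worth 0.0739 to 0.0802 FPKM, which covers counting error only. Within groups, pairs of libraries differed beyond sampling noise (chi-square per degree of freedom 2.73 to 10.9) and were counted separately.

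All 9 libraries entered 1 fit in limma 3.58.1 (R 4.3.3), with a mean for each group, no block and an intensity trend, on log2 of FPKM plus 1. Genes needed 1 FPKM or more in 3 or more libraries. Benjamini-Hochberg adjustment ran over all 11840 genes that passed, and adjusted p under 0.05 is called. Differences and folds are on that log2 scale, which understates changes of low genes. The fit was also run on simulated libraries that had the same dispersion for every gene and no library shifted from its group. That run therefore cannot speak to the position of Ep1_1. Same-numbered Ep1 and Ep2 libraries correlated at 0.152, 0.072 and 0.065 in their deviations from the group means, so the numbers were not taken to pair them.

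Values in every library are given for the largest 2 subunits of each polymerase, for shared subunits, for MED1, MED12, MED13, MED14, MED17, MED23 and MED26, and for up to 8 called members with the largest differences in each direction per comparison. Of each partner list up to 3 called genes are named, and GTF2H2 of the general factors is not analysed here. NELFA and NELFCD were added to show the rest of their complex. Other members are named by role, and 1 member is counted but not reported here by name. The members, the lists and this rule were chosen with earlier results of these data known. Alternatives were other pseudocounts, filters and scalings, removal of the trend on gene length, no intensity trend, fits on 6 libraries, the replicate block, limma voom on recovered fragments, and each library left out. The removal of that trend together with Ep1_1 was chosen after seeing the data.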

Additional observations from a re-analysis of the deposited data

How the results depend on the processing

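None of the 56 members changed direction where it was called, under the alternatives run. Of 168 results (56 members in 3 comparisons), 3290 of 3404 recomputed values kept their side of the threshold, 60 passed only in the alternative and 54 no longer passed. Other pseudocounts, quantile normalization, equal library medians and no intensity trend left every count of called members within 1.5 times its value. Without a filter on low values, 2 members rose and 3 fell in Ep2 relative to Ep1, instead of 4 and 5. Over all genes the calls in that comparison went from 3240 to 2213. With the trend on gene length removed, 13 fell in the PBS group relative to Ep2, instead of 8 (over all genes 5884 were called, instead of 5875). With that trend removed and Ep1_1 left out, 1 rose and 3 fell in Ep2 relative to Ep1, 4 were higher and 2 lower in the PBS group relative to Ep1, and 15 fell in the PBS group relative to Ep2. Over all genes 1875, 1495 and 6179 were then called in these comparisons, instead of 3240, 17 and 5875. With limma voom on recovered fragments, 2 were higher and 1 lower in the PBS group relative to Ep1 (over all genes 525 were called, instead of 17). With each library left out in turn, 0 to 6 rose and 3 to 7 fell in Ep2 relative to Ep1. The lowest counts were 0 higher without Ep2_2 and 1 higher without Ep2_3, with 2 higher and 3 lower without Ep1_1. The calls over all genes dropped as well, from 3240 to 1500 without Ep2_2, 1256 without Ep2_3 and 1824 without Ep1_1. Likewise 0 to 7 were higher and 0 to 5 lower in the PBS group relative to Ep1, above 0 only without Ep1_1. Leaving out Ep1_1 took the calls over all genes there from 17 to 1875. In the PBS group relative to Ep2, 10 to 13 rose and 4 to 9 fell, with 4 lower without Ep2_2 and without column PBS2. Over all genes the calls in that comparison went from 5875 to 4695 without Ep2_2 and 4495 without column PBS2. The causes were not tested. With the replicate block, 4 members rose and 7 fell in Ep2 relative to Ep1 (over all genes 2917 were called, instead of 3240). Of the 6 libraries 4 correlated best with their own number, and the PBS columns carry no usable number. MED18 and MED9 rest on the fewest fragments (at least 51 and 62 in a library), and their values carry the most counting error among the members.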

Other observations

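The mitochondrial RNA polymerase, a single-subunit enzyme related to that of bacteriophages and not a member of the families above, differed in the opposite direction to TFAM and TFB2M, which work with it. POLRMT, the polymerase, averaged 13.9 ± 0.58 FPKM in the PBS group and 10.5 ± 0.89 FPKM in Ep2 (SD, n = 3 each) and rose by 0.38 on the log2 scale (limma adjusted p = 0.00221). TFAM, which packages mitochondrial DNA and starts its transcription, averaged 25.7 ± 1.99 FPKM in the PBS group and 33.1 ± 0.19 FPKM in Ep2 and fell by 0.35 (limma adjusted p = 0.00454). TFB2M, which opens the promoter, fell by 0.29. In Ep2 relative to Ep1, POLRMT fell by 0.36 and TFAM and TFB2M rose by 0.33 and 0.36, with limma adjusted p-values of 0.00881, 0.0151 and 0.00543. The TFAM call was lost without Ep2_3, and those of POLRMT and TFB2M held with each library left out. These comparisons share the Ep2 libraries.

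Of the polymerase I subunits listed under older symbols, TWISTNB, a stalk subunit, averaged 23.4 ± 0.79 FPKM in the PBS group and 32.1 ± 0.85 FPKM in Ep2 and fell by 0.44 (limma adjusted p = 0.000582). It rose by 0.29 in Ep2 relative to Ep1 (limma adjusted p = 0.00948). CD3EAP and ZNRD1 passed in none of the 3 comparisons by limma, though limma voom called CD3EAP between the PBS group and Ep1.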
